A study of Mus musculus with 18 samples.

Results

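The SLC25 mitochondrial carriers are the largest family of solute transporters in mammals, and their genes were taken here as every gene of the RNA-seq count table whose symbol is Slc25a followed by a number. The rule used the symbol and no measured value, and it found 44 of the 15572 genes in the table, with 62 transcripts among them. Livers of C57BL/6J mice kept on chow for 6 to 8 weeks were studied, and the mice were wild type (WT) or carried a deletion of floxed Jmjd1c, which encodes a histone H3K9 demethylase, driven by Cre under the albumin promoter (JMJD1C-LKO). RNA-seq was made from 2 WT refed and 2 JMJD1C-LKO refed samples, ATAC-seq from the livers of 2 fasted WT, 2 refed WT and 2 refed JMJD1C-LKO mice, and H3K9me2 ChIP-seq from 2 fasted and 2 refed livers of WT mice. Refed mice had fasted overnight and then eaten a high carbohydrate diet for 6 h by the labels, whereas the general methods of the study give a longer time. The F and R of the ATAC-seq and ChIP-seq titles were read as fasted and refed from the study's reporting summary, because the labels describe the same treatment for all samples. The WT mice were littermates, and whether they carried floxed alleles without Cre is not given in the sources used here. RNA was pooled before library preparation, and the number of mice behind each RNA library is not given, while each ATAC-seq or ChIP-seq sample came from 1 liver.

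Mitochondrial carriers are small proteins that cross the inner mitochondrial membrane and exchange metabolites, nucleotides or cofactors between matrix and cytosol. In liver they carry citrate out of the matrix to supply carbon for fatty acid synthesis, ornithine in for the urea cycle, reducing equivalents through the malate-aspartate shuttle, fatty acids as acylcarnitines, and ADP, ATP and phosphate for oxidative phosphorylation. The members were placed in 8 substrate classes by their textbook roles, and 7 members had no substrate assigned in this grouping.

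Total counts lay between 51265128 and 54400509 per RNA library. Of the 7 hepatocyte markers checked, which include Alb, Apoa1 and Ttr, all were detected in every library and Alb stood at 71445 to 86053 CPM (counts scaled to a fixed library total). Jmjd1c itself had 22 and 22.8 CPM in the WT libraries and 20 and 20.5 CPM in the libraries labelled JMJD1C-LKO, a log2 fold change of -0.14 ± 0.08 (standard error, adjusted p = 0.23 in edgeR's quasi-likelihood test). The study reported a clear loss of Jmjd1c mRNA by RT-qPCR in JMJD1C-LKO livers, and no detectable protein, whereas the counts here were only slightly lower. Where the deleted exons lie is not given in the sources used here, so the total count of the gene may not report the deletion. The reason for this difference was not tested, and the genotype was taken from the labels. All 7 Kupffer cell and macrophage markers were higher in the libraries labelled JMJD1C-LKO, with a summed level of 188 and 190 CPM in WT against 353 and 504 CPM, and 5 of 6 endothelial markers were higher, with 96.9 and 97.9 CPM against 131 and 173 CPM. Stellate cell (2 of 6) and lymphocyte (2 of 8) markers also included called genes, all higher, and single genes were called in the hepatocyte (Cps1), erythroid (Alas2), pancreas (Cela1) and adipocyte (Fabp4) lists, all higher, and in the muscle (Myh4) and sex-linked (Kdm5d) lists, both lower. No cholangiocyte marker passed, and 1 of 4 tested, Krt19, had an unadjusted p under 0.05. Among all genes tested, 14.6% were called higher and 13.4% lower. The part of these cells in the changes below was not tested. In bulk tissue a change in the number of cells of a type and a change in RNA per cell cannot be told apart.

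**Figure D1:**
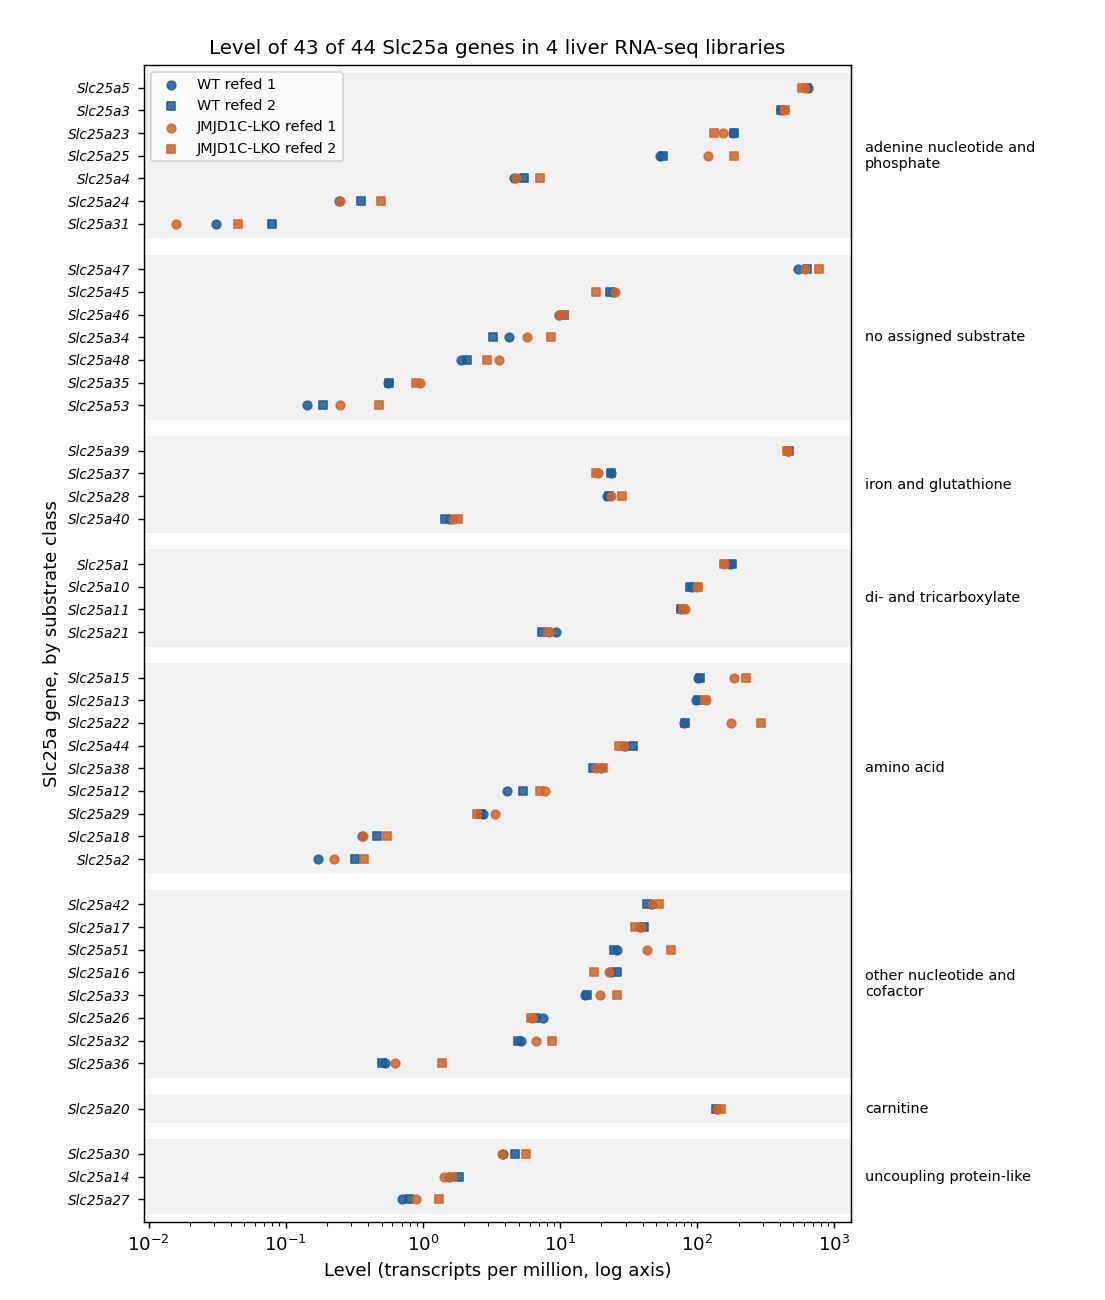
Level of 43 of the 44 Slc25a genes in TPM (log axis) in 2 WT refed (blue) and 2 JMJD1C-LKO refed (orange) libraries, grouped by substrate class. Slc25a5 and Slc25a47 lie above 500 TPM in all 4 libraries, and Slc25a31 lies below 0.1 TPM in all 4.

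A few carriers made up most of the family's RNA. Levels between genes were compared as TPM, which are counts divided by transcript length and scaled to the same total in every library. The 8 highest members in WT held 78.2% and 78.7% of the family's summed TPM in the 2 WT libraries. Slc25a5, the ADP/ATP carrier 2 that exchanges matrix ATP for cytosolic ADP, had the highest mean WT level, with 639 and 633 TPM in WT and 608 and 580 TPM in JMJD1C-LKO. Slc25a47, which is expressed mainly in liver, followed with 539 and 634 TPM in WT and 615 and 768 TPM in JMJD1C-LKO. The WT values of these 2 genes overlapped, so that their order was not separated by the spread between libraries. Slc25a39, a glutathione carrier, had 455 and 468 TPM in WT and 460 and 451 TPM in JMJD1C-LKO. Slc25a3, the phosphate carrier that feeds ATP synthase, had 408 and 411 TPM in WT and 431 and 434 TPM in JMJD1C-LKO. These 4 genes stood well above all others, since the next 4 members lay between 101 and 184 TPM in WT.

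Slc25a23, a calcium-regulated ATP-Mg/phosphate carrier, had 183 and 184 TPM in WT and 155 and 133 TPM in JMJD1C-LKO. Slc25a1, the citrate carrier, had 174 and 178 TPM in WT and 157 and 157 TPM in JMJD1C-LKO. Slc25a20, the carnitine/acylcarnitine carrier, had 139 and 137 TPM in WT and 139 and 150 TPM in JMJD1C-LKO. The order of these 3 held in both WT libraries. Slc25a15, the ornithine/citrulline carrier of the urea cycle, had 101 and 104 TPM in WT and 184 and 226 TPM in JMJD1C-LKO. In WT it was close to Slc25a13, the aspartate/glutamate carrier citrin, with 98.4 and 102 TPM, and the values of this pair overlapped.

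At the low end, 7 members had a mean WT level under 1 CPM. Slc25a31, a testis ADP/ATP carrier, had 2 and 5 counts in WT and 1 and 3 counts in JMJD1C-LKO and was the only member left out of the test for low counts. In several pairs of close relatives, of which 3 are given here, the level of 1 gene lay far above that of the other. The mitoferrins Slc25a37 (23.7 and 23.4 TPM in WT) and Slc25a28 (22.1 and 22.9 TPM) were nearly equal. The ADP/ATP carrier 1 of heart and muscle, Slc25a4, had 4.61 and 5.46 TPM in WT beside the 639 and 633 TPM of Slc25a5. The aspartate/glutamate carrier aralar, Slc25a12, had 4.12 and 5.33 TPM beside the 98.4 and 102 TPM of Slc25a13. The glutamate carrier 2 Slc25a18 had 0.36 and 0.464 TPM beside 80.2 and 81.3 TPM of the glutamate carrier 1 Slc25a22. The level of Slc25a5 is uncertain, since at least 57.4% of the 31-base words of its transcript also occur elsewhere in the genome. The search read the genome in a single direction, so its shares are lower bounds, and looser ones for genes on the minus strand. The shares found for the other members, at most 6.34%, therefore do not show that their transcripts are unique.

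Summed over classes, the carriers of adenine nucleotides and phosphate were highest, with 1289 and 1291 TPM in WT and 1319 and 1341 TPM in JMJD1C-LKO. The amino acid carriers had 336 and 347 TPM in WT and 537 and 692 TPM in JMJD1C-LKO, the widest gap between groups of the 8 classes in these sums. The di- and tricarboxylate carriers had 350 and 350 TPM in WT and 348 and 345 TPM in JMJD1C-LKO, and the values of the iron and glutathione carriers overlapped, with 502 and 515 TPM against 504 and 499 TPM. The family as a whole summed to 3373 and 3491 TPM in WT and 3706 and 4066 TPM in JMJD1C-LKO.

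**Figure D2:**
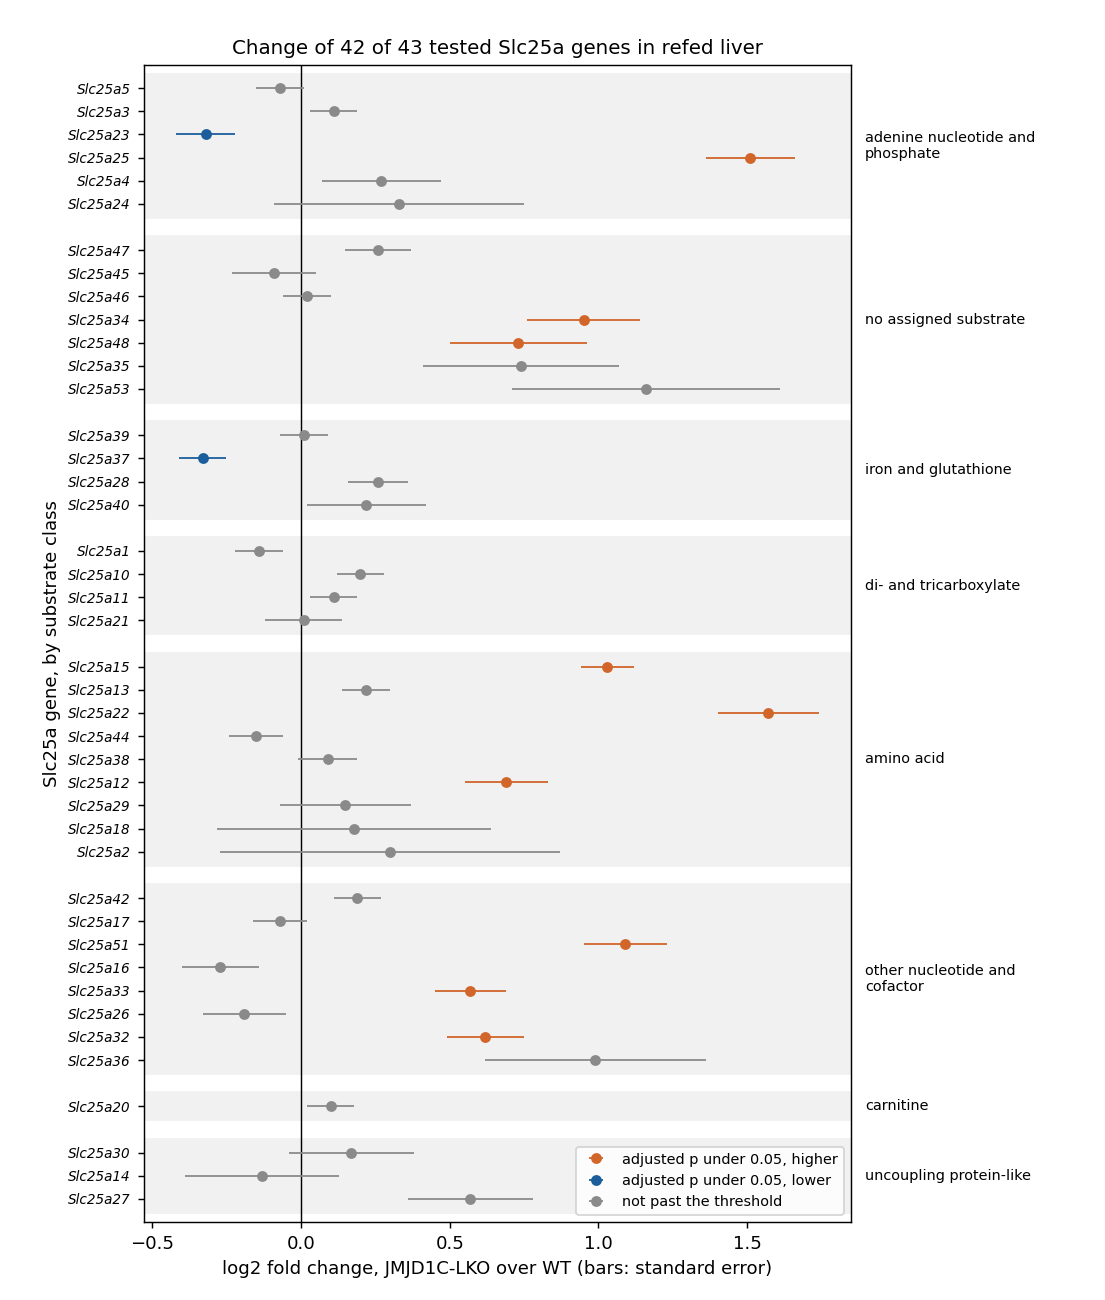
The log2 fold change of JMJD1C-LKO over WT in refed liver for 42 of the 43 tested Slc25a genes, grouped by substrate class, with bars for the standard error. Orange points (9) are higher and blue points (2) lower at an adjusted p under 0.05, and the highest 2 points are Slc25a22 at 1.57 and Slc25a25 at 1.51.

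RNA-seq compared refed JMJD1C-LKO with refed WT liver. The ornithine/citrulline carrier Slc25a15, the ATP-Mg/phosphate carrier Slc25a25, the glutamate carrier Slc25a22 and the NAD carrier Slc25a51 rose to between 2.04 and 2.96 times their WT level, and 5 less changed members rose as well. Only Slc25a37, which encodes the iron importer mitoferrin 1, and Slc25a23 fell, both to 0.80 of their WT level. Of the 43 members tested, 9 were thus higher (20.9%) and 2 lower (4.65%), against 14.6% higher and 13.4% lower among all 14151 genes tested. Counted in either direction, 25.6% of members and 28.0% of all genes were called, so the share of members called lay near that of all genes. The median log2 fold change was 0.19 over the members and 0.01 over all genes, and 33 of 43 members had a value above 0, against 50.6% of all genes. In 23 members both JMJD1C-LKO libraries lay above both WT libraries (33.7% of all genes tested) and in 5 members below (33.8%), while the groups overlapped in the other 15 tested members. At an unadjusted p under 0.05, 20 members passed (46.5%), against 39.9% of all genes.

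**Figure D3:**
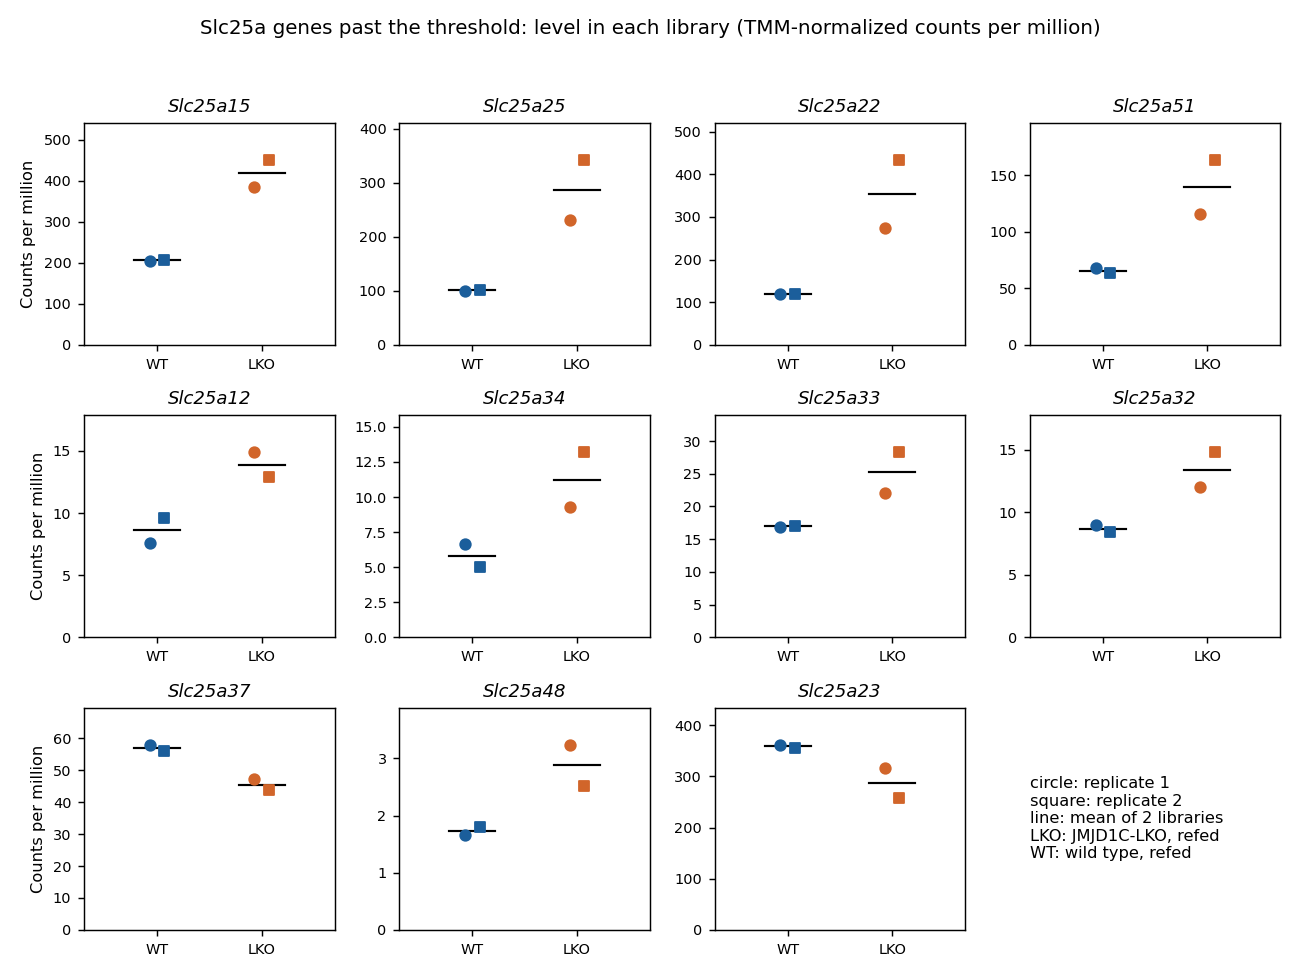
TMM-normalized CPM in each library for the 11 Slc25a genes past the threshold, ordered by p, each on its own linear axis from 0; circles are replicate 1, squares replicate 2 and lines the mean of 2 libraries. The groups are apart in every panel, with Slc25a37 and Slc25a23 lower in JMJD1C-LKO.

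Among the amino acid carriers, 3 of 9 passed the threshold, all higher. Slc25a15 (chr8:22375550-22398621, minus strand, GRCm38.p6) had 205 and 206 CPM in WT and 385 and 451 CPM in JMJD1C-LKO. Both JMJD1C-LKO values lay far above the WT values, which were nearly equal, and the log2 fold change was 1.03 ± 0.09 (adjusted p = 1.4e-04, edgeR's quasi-likelihood test with Benjamini-Hochberg adjustment over 14151 genes, as for all adjusted p below). Slc25a22 (chr7:141429749-141437874, minus strand), which imports glutamate with a proton, had 120 and 119 CPM in WT and 274 and 434 CPM in JMJD1C-LKO. Its log2 fold change was 1.57 ± 0.17 (adjusted p = 3.4e-04), the highest of the family, although the JMJD1C-LKO libraries differed widely from each other. Slc25a12 had 7.62 and 9.64 CPM in WT and 14.9 and 12.9 CPM in JMJD1C-LKO. Its rise of 0.69 ± 0.14 on the log2 scale (adjusted p = 0.0065) was that of a low gene, and its highly expressed relative Slc25a13, with 180 and 183 CPM in WT and 220 and 204 CPM in JMJD1C-LKO, did not pass the threshold (0.22 ± 0.08, adjusted p = 0.066). The remaining 5 amino acid carriers, which take up basic and branched-chain amino acids, glycine, ornithine and glutamate, ranged from -0.15 (Slc25a44) to 0.30 (Slc25a2).

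The enzymes that work with these carriers were described from a list of 14 malate-aspartate and urea cycle genes, of which 6 were higher and 1 lower. Over all genes tested 14.6% were higher and 13.4% lower, and these shares stand beside the counts of this and the later lists. Got1, the cytosolic aspartate aminotransferase, had 76.2 and 72 CPM in WT and 365 and 581 CPM in JMJD1C-LKO (log2 fold change 2.67 ± 0.18, adjusted p = 3.9e-05). Oat, the ornithine aminotransferase of the matrix, had 609 and 475 CPM in WT and 1059 and 1102 CPM in JMJD1C-LKO (1.0 ± 0.12). Cps1, the carbamoyl phosphate synthase that opens the urea cycle, had 2019 and 2175 CPM in WT and 3390 and 3149 CPM in JMJD1C-LKO (0.64 ± 0.09). The mitochondrial partner of Got1, Got2, had 645 and 657 CPM in WT and 711 and 601 CPM in JMJD1C-LKO, which overlap, and the list's median log2 fold change was 0.18.

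Among the 7 carriers of adenine nucleotides and phosphate, 6 were tested, and 1 rose and 1 fell. Slc25a25 (chr2:32414487-32451470, minus strand), an ATP-Mg/phosphate carrier whose amino-terminal part binds calcium, had 99.9 and 102 CPM in WT and 232 and 343 CPM in JMJD1C-LKO. Every JMJD1C-LKO value was over double the WT values, with a log2 fold change of 1.51 ± 0.15 (adjusted p = 2.3e-04). Slc25a23, which encodes a carrier of the same kind, had 362 and 356 CPM in WT and 316 and 258 CPM in JMJD1C-LKO (-0.32 ± 0.10, adjusted p = 0.041). These relatives therefore changed in opposite directions, and the third, Slc25a24, had 0.482 and 0.69 CPM in WT and 0.506 and 0.962 CPM in JMJD1C-LKO. The 404 bp of Slc25a25 exon that lie opposite to Naif1 are 9.53% of its exons, and Naif1 had only 1.39 to 1.67 CPM in the 4 libraries. Slc25a5, Slc25a3 and Slc25a4 did not pass the threshold, with log2 fold changes of -0.07, 0.11 and 0.27.

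Slc25a25 and Slc25a22 have several transcript starts in RefSeq, so their counts were also summed per start and fitted over 16403 starts, of which 16.3% were called. The main start of Slc25a25, at position 32424066 of chromosome 2, had 97.3 and 98.3 CPM in WT and 219 and 326 CPM in JMJD1C-LKO (log2 fold change 1.48 ± 0.18, adjusted p = 0.0084). The upstream start at 32451470 had 2.4 and 3.93 CPM in WT and 14.2 and 19.2 CPM in JMJD1C-LKO (2.40 ± 0.26, adjusted p = 0.0074), whereas the start between them at 32431151 had 1.11 and 1.01 CPM in WT and 0.571 and 0.439 CPM in JMJD1C-LKO (-1.07 ± 0.38, adjusted p = 0.10). Both tested starts of Slc25a22 were higher, at 1.56 ± 0.20 (adjusted p = 0.0098) and 1.67 ± 0.33 (adjusted p = 0.025). These are estimated counts, which were split between transcripts that share exons.

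The promoters of the 4 called members with the largest changes are shown where RefSeq gives one, from 250 bases before to 50 after the start, 5′ to 3′ on the gene's strand in GRCm38.p6. Capitals mark a match, on either strand, to 1 of 6 motifs searched in the whole family: the E-box CACGTG, the cAMP response element TGACGTCA, the consensus of the factor NRF1, a palindrome, the ERR motif TCAAGGTCA, the CCAAT box CCAAT and the TATA box TATAAA. Slc25a15 is shown at both of its RefSeq starts, the upstream one (chr8:22398572-22398871, minus strand), which is that of its only transcript in the count table, and the downstream one (chr8:22398228-22398527, minus strand), Slc25a25 at its main start (chr2:32424017-32424316, minus strand) and at its upstream start (chr2:32451421-32451720, minus strand), and Slc25a22 at the start that holds most of its counts (chr7:141434545-141434844, minus strand).
Slc25a15, upstream start: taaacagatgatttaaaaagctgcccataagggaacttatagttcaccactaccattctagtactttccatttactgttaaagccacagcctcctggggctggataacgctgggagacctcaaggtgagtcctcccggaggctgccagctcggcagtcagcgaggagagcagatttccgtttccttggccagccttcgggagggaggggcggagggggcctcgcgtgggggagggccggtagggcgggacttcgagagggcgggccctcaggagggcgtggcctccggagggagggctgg
Slc25a15, downstream start: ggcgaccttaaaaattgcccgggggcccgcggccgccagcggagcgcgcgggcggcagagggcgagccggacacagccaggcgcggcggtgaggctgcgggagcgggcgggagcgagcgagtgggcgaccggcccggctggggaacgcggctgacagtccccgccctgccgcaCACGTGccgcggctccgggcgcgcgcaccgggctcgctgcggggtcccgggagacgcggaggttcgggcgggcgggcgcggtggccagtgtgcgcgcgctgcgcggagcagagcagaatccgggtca
Slc25a25, main start: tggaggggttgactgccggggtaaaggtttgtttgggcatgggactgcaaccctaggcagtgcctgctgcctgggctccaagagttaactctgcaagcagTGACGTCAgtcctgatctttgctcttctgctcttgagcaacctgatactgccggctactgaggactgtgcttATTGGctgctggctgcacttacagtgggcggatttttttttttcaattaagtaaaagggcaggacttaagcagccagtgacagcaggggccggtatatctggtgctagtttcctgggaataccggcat
Slc25a25, upstream start: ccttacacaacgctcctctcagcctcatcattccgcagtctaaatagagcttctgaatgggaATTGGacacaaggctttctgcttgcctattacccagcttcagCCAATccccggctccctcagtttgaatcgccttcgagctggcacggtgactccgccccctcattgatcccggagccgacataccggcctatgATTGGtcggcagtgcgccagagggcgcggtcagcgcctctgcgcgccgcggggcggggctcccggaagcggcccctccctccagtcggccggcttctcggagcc
Slc25a22: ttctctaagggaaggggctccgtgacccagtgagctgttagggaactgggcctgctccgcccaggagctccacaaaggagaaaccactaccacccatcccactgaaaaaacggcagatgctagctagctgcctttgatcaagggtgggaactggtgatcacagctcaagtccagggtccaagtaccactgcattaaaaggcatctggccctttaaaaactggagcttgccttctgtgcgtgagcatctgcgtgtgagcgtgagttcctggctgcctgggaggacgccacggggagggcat
The upstream Slc25a15 promoter held none of the motifs in a sequence of 60.7% G and C, and the downstream one held an E-box 77 bases before the start in a sequence of 79% G and C. The main Slc25a25 promoter held the cAMP response element 150 bases before the start and a CCAAT box, its upstream promoter held 3 CCAAT boxes, and the Slc25a22 promoter held none of the motifs.

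Of the 44 members, 34 had a promoter in the RefSeq table, and their motif content was set beside that of all 27025 genes with a promoter, without a test. Counting any of a gene's promoters, an E-box lay in 7 members (20.6%, against 8.09% of all genes), among them Slc25a1, Slc25a13, Slc25a15 and Slc25a33. The cAMP response element lay in 2 members (5.88% against 2.03%), Slc25a25 and Slc25a36. A CCAAT box lay in 19 members (55.9% against 41.1%) and a TATA box in 2 (5.88% against 15.7%), while the NRF1 consensus and the ERR letters were in no member's window (1.07% and 0.466% of all genes). The member promoters had a median of 59.3% G and C and 15 CG dinucleotides, against 52.7% and 7 for all promoters. The E-box and the cAMP response element each contain a CG, and the part of base composition in these shares was not tested. Shares over the genes tested in RNA-seq were not computed. Of the called members, 8 were in the table, and 2 held an E-box and 1 the cAMP response element.

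Among the 9 carriers of other nucleotides and cofactors, 3 passed the threshold, all higher. Slc25a51, the carrier that brings NAD into the matrix, had 68.1 and 63.4 CPM in WT and 116 and 164 CPM in JMJD1C-LKO, a rise of 1.09 ± 0.14 on the log2 scale (adjusted p = 7.6e-04). Slc25a33, a pyrimidine nucleotide carrier, had 16.9 and 17 CPM in WT and 22.1 and 28.3 CPM in JMJD1C-LKO (0.57 ± 0.12, adjusted p = 0.0067). Slc25a32, a carrier of folate and FAD, had 8.97 and 8.42 CPM in WT and 12 and 14.8 CPM in JMJD1C-LKO (0.62 ± 0.13, adjusted p = 0.0076). In these 3 genes the WT libraries were close together and both JMJD1C-LKO libraries lay above them. Slc25a36, the other pyrimidine nucleotide carrier, had 0.945 and 0.882 CPM in WT and 1.15 and 2.45 CPM in JMJD1C-LKO, and its log2 fold change of 0.99 ± 0.37 did not pass (adjusted p = 0.071). The coenzyme A carrier Slc25a42 (0.19 ± 0.08), the peroxisomal Slc25a17 (-0.07 ± 0.09), Slc25a16 (-0.27 ± 0.13) and the S-adenosylmethionine carrier Slc25a26 (-0.19 ± 0.14) did not pass either. Of 14 genes for the making of these cofactors, 2 were higher: Mat1a, the S-adenosylmethionine synthase of hepatocytes, at 0.65 ± 0.10, and Pank1, a pantothenate kinase, at 0.36 ± 0.08.

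The iron and glutathione carriers held 1 lower member of 4. Slc25a37 had 58 and 56.1 CPM in WT and 47.3 and 43.7 CPM in JMJD1C-LKO, a log2 fold change of -0.33 ± 0.08 (adjusted p = 0.016). The groups were apart by more than the spread within either. Its relative Slc25a28, mitoferrin 2, did not pass the threshold, with 18.8 and 18.9 CPM in WT and 20.9 and 24.3 CPM in JMJD1C-LKO (0.26 ± 0.10, adjusted p = 0.07), and the glutathione carriers Slc25a39 (0.01 ± 0.08) and Slc25a40 (0.22 ± 0.20) did not pass. In the list of 14 iron-sulphur, heme and glutathione partners, 7 were lower and 1 higher, with a median of -0.29. Of all genes tested, 13.4% were lower and 14.6% higher. The lower genes named next had the smallest p and all serve glutathione synthesis. They do not stand for the iron and heme genes of the list. Gclc, the catalytic subunit of the enzyme that limits glutathione synthesis, had a log2 fold change of -1.42 ± 0.14 (adjusted p = 0.00021). Its modifier subunit Gclm had 237 and 230 CPM in WT and 136 and 106 CPM in JMJD1C-LKO (-0.95 ± 0.11), and the glutathione synthetase Gss was lower too (-0.64 ± 0.09). Of 7 erythroid markers only Alas2 passed, and the globin gene Hbb-bs had 301 and 147 CPM in WT and 267 and 255 CPM in JMJD1C-LKO.

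No member of the di- and tricarboxylate class or the carnitine class passed the threshold in edgeR's test, in DESeq2 or in limma-voom, and Slc25a10 alone had an unadjusted p under 0.05. The citrate carrier Slc25a1 (chr16:17925211-17928219, minus strand) had 171 and 172 CPM in WT and 160 and 152 CPM in JMJD1C-LKO, a log2 fold change of -0.14 ± 0.08 (adjusted p = 0.22). Both JMJD1C-LKO values lay below both WT values, by a small step. The dicarboxylate carrier Slc25a10 had 0.20 ± 0.08 (adjusted p = 0.092), the oxoglutarate/malate carrier Slc25a11 0.11 ± 0.08 and the oxodicarboxylate carrier Slc25a21 0.01 ± 0.13. Of the 12 genes listed for citrate export and cytosolic NADPH, 3 were higher and 2 lower. The malic enzyme Me1, which makes NADPH from malate, had 185 and 196 CPM in WT and 112 and 94.3 CPM in JMJD1C-LKO (-0.88 ± 0.10, adjusted p = 0.00034), the cytosolic isocitrate dehydrogenase Idh1 was lower as well (-0.40 ± 0.10), and Acss2, the acetyl-CoA synthetase, was higher (0.32 ± 0.08). Slc25a20 had 143 and 137 CPM in WT and 148 and 152 CPM in JMJD1C-LKO (0.10 ± 0.08), while 3 of 9 carnitine shuttle genes were higher, led by Cpt1a, the outer membrane carnitine palmitoyltransferase (0.58 ± 0.08, adjusted p = 0.0012), Slc22a5 (0.72 ± 0.15) and Cpt1b (1.0 ± 0.23).

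Of the 7 members without an assigned substrate, 2 were higher. Slc25a34 had 6.64 and 5.02 CPM in WT and 9.27 and 13.2 CPM in JMJD1C-LKO (0.95 ± 0.19, adjusted p = 0.0066). Slc25a48 had 1.66 and 1.8 CPM in WT and 3.24 and 2.52 CPM in JMJD1C-LKO (0.73 ± 0.23, adjusted p = 0.039). Both are low genes, with 86 to 730 counts per library. Slc25a53 and Slc25a35 had log2 fold changes of 1.16 ± 0.45 and 0.74 ± 0.33 at under 1.1 CPM in every library, which did not pass, and Slc25a47 had 501 and 575 CPM in WT and 589 and 702 CPM in JMJD1C-LKO (0.26 ± 0.11, adjusted p = 0.098). The uncoupling protein-like members Slc25a14, Slc25a27 and Slc25a30 did not pass, at -0.13 ± 0.26, 0.57 ± 0.21 and 0.17 ± 0.21. Among family members that carry other symbols, 2 of 3 tested were higher: Ucp2, an uncoupling protein relative found also in macrophages, with 35.4 and 37.9 CPM in WT and 50.2 and 73.6 CPM in JMJD1C-LKO (0.76 ± 0.15, adjusted p = 0.0059), and Mtch1 (0.45 ± 0.08).

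Carriers reach the inner membrane through the outer membrane pore and the small chaperones of the space between the membranes. Of 20 genes of this route and of the outer membrane pores, 4 passed, all lower, with a median log2 fold change of -0.17. Timm9, a chaperone that escorts carrier precursors, had 51.2 and 46.9 CPM in WT and 32.6 and 29.7 CPM in JMJD1C-LKO (-0.66 ± 0.09, adjusted p = 0.00091). Tomm40l (-0.39 ± 0.09) and Timm10b (-0.28 ± 0.09) were lower too, whereas Timm22, the insertase of carriers, had -0.09 ± 0.11. Of 16 other inner membrane transporters tested, 2 were higher and 1 lower, and the higher ones were Sfxn1 (0.36 ± 0.08), a mitochondrial serine transporter, and Micu2 (0.38 ± 0.09).

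The 2 JMJD1C-LKO libraries were not alike in these changes. In 7 of the 9 higher members and in both lower members the second JMJD1C-LKO library lay farther from WT than the first, and the same library had the higher macrophage and endothelial marker sums given above. Without it, 11 members were called (25.6%, against 21.4% of all genes), 10 of them among those named here. Without the first WT library or without the second, 5 were called (11.6%), all higher, against 8.72% and 7.36% of all genes. Without the first JMJD1C-LKO library 18 were called (41.9%), against 35.8% of all genes, so the number of members called moved with that of all genes. Slc25a15, Slc25a22, Slc25a25 and Slc25a51 were called in each of these fits. Slc25a32, Slc25a33 and Slc25a37 were lost without either WT library (adjusted p up to 0.098, 0.075 and 0.15), Slc25a12 without the first (0.086) and Slc25a34 without the second (0.092). Slc25a23 was lost without either WT library or without the second JMJD1C-LKO library (up to 0.21), and Slc25a48 without either WT library or without the first JMJD1C-LKO library (up to 0.22).

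Chromatin was compared through the summits of peaks, single positions that the authors called in each liver. A member was counted when a summit lay within 1000 bp of any of its RefSeq starts, and scores are the −log10 of the q-value at the summit, compared by rank within a liver. The summit lists differ in length, from 825 to 7632 in ATAC-seq and from 1297 to 13456 in ChIP-seq, and hold no read counts. The study gives an approximate depth for its sequencing, but the depth of each sample is not given in the sources used here. The first WT refed H3K9me2 liver stands apart, with 1297 summits and 61 of 26180 annotated genes reached, and the JMJD1C-LKO livers had the shortest ATAC-seq lists, with 1450 and 825 summits. With 2 livers against 2, the smallest two-sided p an exact permutation test can give is 0.333, so no test was made.

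**Figure D4:**
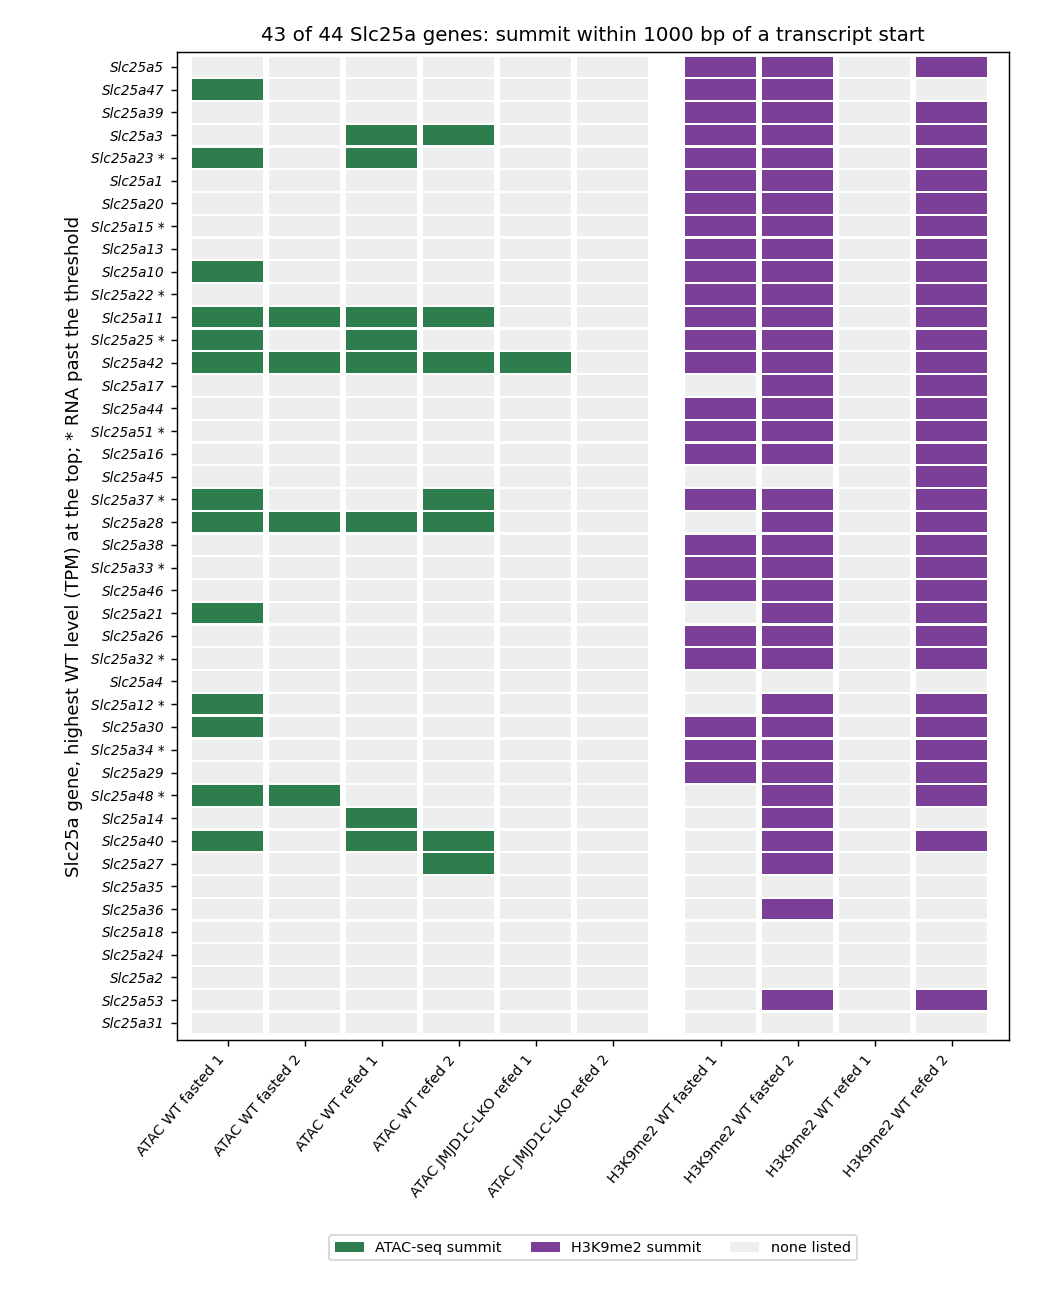
43 of the 44 Slc25a genes (ordered by WT level in TPM, highest at the top, with an asterisk for RNA past the threshold) against 10 livers, with cells filled where an ATAC-seq (green) or H3K9me2 (purple) summit was found no more than 1000 bp from a transcript start. Slc25a42 has an ATAC-seq summit in 5 of 6 livers, and the first WT refed liver has no H3K9me2 summit at any gene shown.

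ATAC-seq marks DNA that a transposase can reach, and active promoters are usually among it. The fasted WT livers had a summit at 13 and 4 members, which were 29.5% and 9.09% of the family, against 12.0% and 5.49% of all annotated genes and 20.2% and 9.28% of genes tested in RNA-seq. The refed WT livers had one at 8 and 7 members, or 18.2% and 15.9%, against 9.94% and 6.24% of all genes and 16.7% and 10.5% of tested genes. The JMJD1C-LKO livers had one at 1 and 0 members, or 2.27% and 0, against 4.06% and 0.886% of all genes and 6.66% and 1.31% of tested genes. In the JMJD1C-LKO livers the low member counts went with low counts over all genes. Fasted WT livers had 4 members in common (4.36% of all genes and 7.36% of tested genes), refed WT livers had 5 (4.78% and 8.07%) and JMJD1C-LKO livers had 0 (0.397% and 0.564%). When every liver was limited to its 825 strongest summits, the numbers shared were 1 in fasted WT (0.932% of all genes and 1.58% of tested genes), 2 in refed WT (1.15% and 1.97%) and 0 in JMJD1C-LKO livers (0.237% and 0.340%).

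In all, 16 of 44 members (36.4%) had an ATAC-seq summit in at least 1 liver, against 16.8% of all annotated genes and 28.2% of tested genes. Slc25a42, the coenzyme A carrier, had one in 5 of 6 livers, including the first JMJD1C-LKO liver, at 216 to 406 bp before the start. Its summits ranked 813 and 1216 after fasting, 471 and 245 after refeeding in WT, and 851 of 1450 in the JMJD1C-LKO liver. Slc25a28, mitoferrin 2, had one in all 4 WT livers, at ranks 749, 717, 328 and 163, between 92 and 366 bp before the start. Slc25a11, the oxoglutarate/malate carrier, had one in all 4 WT livers as well, at ranks 1072, 582, 1949 and 1994, and its position hardly moved, at 104, 100, 105 and 29 bp before the start. These 3 genes did not pass the threshold in RNA, with log2 fold changes of 0.11 to 0.26.

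The promoters of these 3 genes, the members with a summit in every WT liver, are printed with the same marking, from chr8:70212232-70212531, chr19:43674832-43675131 and chr11:70646990-70647289, all on the minus strand of GRCm38.p6.
Slc25a42: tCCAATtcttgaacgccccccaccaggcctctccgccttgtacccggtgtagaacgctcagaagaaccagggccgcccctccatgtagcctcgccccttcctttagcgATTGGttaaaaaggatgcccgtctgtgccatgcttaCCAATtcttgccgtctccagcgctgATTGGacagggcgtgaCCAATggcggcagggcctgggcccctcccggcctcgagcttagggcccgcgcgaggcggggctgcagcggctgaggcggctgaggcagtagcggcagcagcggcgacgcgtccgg
Slc25a28: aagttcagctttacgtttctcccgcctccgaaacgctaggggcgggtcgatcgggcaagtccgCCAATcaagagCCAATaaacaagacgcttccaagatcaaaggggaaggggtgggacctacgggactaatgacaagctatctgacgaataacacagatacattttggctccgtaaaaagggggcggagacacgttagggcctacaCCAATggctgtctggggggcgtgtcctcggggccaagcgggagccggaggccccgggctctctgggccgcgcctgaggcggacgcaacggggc
Slc25a11: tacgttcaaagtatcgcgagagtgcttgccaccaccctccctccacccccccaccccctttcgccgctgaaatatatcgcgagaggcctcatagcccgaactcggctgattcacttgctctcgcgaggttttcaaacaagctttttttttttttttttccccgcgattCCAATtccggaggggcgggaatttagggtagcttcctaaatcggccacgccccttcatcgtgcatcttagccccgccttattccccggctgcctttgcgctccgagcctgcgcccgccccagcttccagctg
All 3 held CCAAT boxes and no other of the 6 motifs: 5 in Slc25a42, 3 in Slc25a28 and 1 in Slc25a11, 82 bases before its start. Each window had 24 or 26 CG dinucleotides, above the median of 7 over all promoters. The summits of Slc25a11 all fell inside its window, and those of Slc25a42 fell inside it in 2 of 5 livers.

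Other members were reached in some livers. Slc25a40 had a summit in the first WT fasted and in both WT refed livers, within 138 bp of its start. Slc25a3 had one in both WT refed livers, 112 and 75 bp before its start, and in neither fasted liver. Slc25a48 had one in both fasted livers, 237 and 308 bp into the gene, and in no refed liver. Slc25a25 had one in the first fasted liver, 828 bp before its upstream start, and one in the first refed liver, 135 bp before its main start and thus close to the cAMP response element printed above. Slc25a23 (first fasted and first refed liver) and Slc25a37 (first fasted and second refed liver) had one in 2 livers each, and Slc25a10, Slc25a12, Slc25a14, Slc25a21, Slc25a27, Slc25a30 and Slc25a47 in 1. Of the 11 members changed in RNA, 5 had a summit in the first fasted liver, 1 in the second, 2 and 1 in the refed livers of WT mice and 0 in the JMJD1C-LKO livers. In the same order, these livers had one at 29.5%, 9.09%, 18.2%, 15.9%, 2.27% and 0% of all members. Of the tested genes, 20.2%, 9.28%, 16.7%, 10.5%, 6.66% and 1.31% had one. Slc25a15, Slc25a22 and Slc25a51 had none in any liver.

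H3K9me2, the dimethylation of lysine 9 on histone H3 that JMJD1C removes, is usually linked to silent chromatin. In fasted liver 26 and 37 of 44 members had an H3K9me2 summit within 1000 bp of a start (29.3% and 42.7% of all annotated genes, 51.6% and 74.1% of genes tested in RNA-seq). In refed liver 0 and 34 members had one (0.233% and 35.1% of all genes, 0.123% and 61.6% of tested genes). With both refed livers required, the number of members was therefore 0 (0.0420% of all genes and 0.0723% of tested genes), and with the second refed liver alone it was 34. In fasted liver 26 members were reached in both livers (29.1% of all genes and 51.3% of tested genes), 7 of them when each liver was limited to its 1297 strongest summits (3.40% of all genes and 5.95% of tested genes). In the livers other than the first refed one, the shares of members were 59.1%, 84.1% and 77.3%, above those of the genes tested in RNA-seq, and this comparison was not tested.

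**Figure D5:**
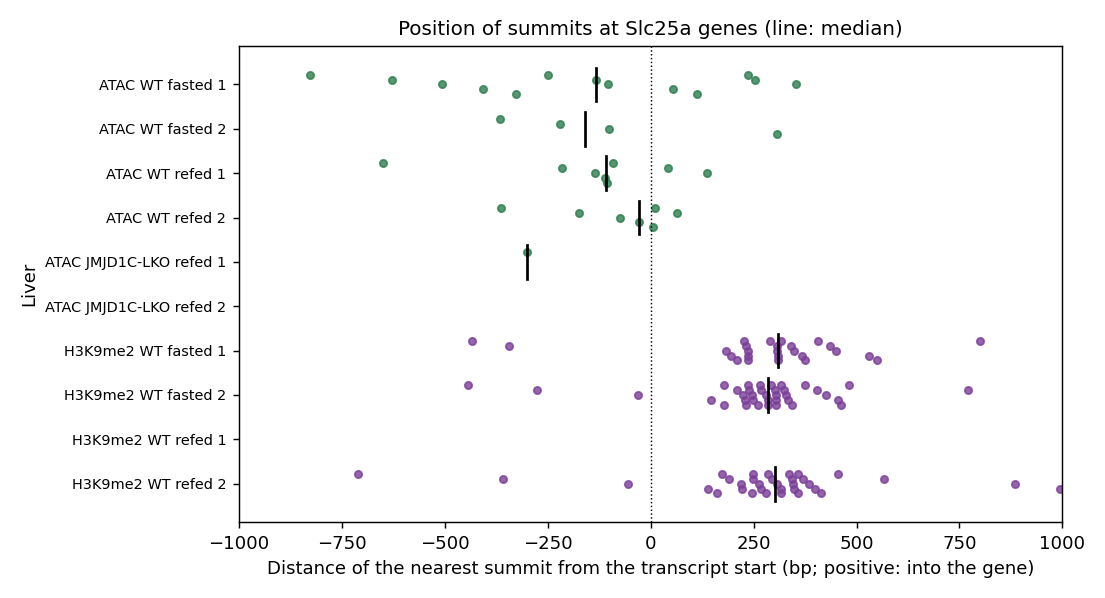
Distance in bp from the transcript start to the nearest summit for each member that had one within 1000 bp, by liver, with positive values inside the gene and vertical lines at the median. ATAC-seq medians lie at or before the start (-300 to -29 bp), and H3K9me2 medians lie 284 to 309 bp inside the gene.

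The H3K9me2 summits lay inside the genes rather than on the starts. The median distance was 309 and 284 bp downstream in the fasted livers and 301 bp in the second refed liver, with 24 of 26, 34 of 37 and 31 of 34 members downstream. Distances were not computed over all genes, so whether this position is particular to the family was not tested. ATAC-seq summits had medians of 133 and 160 bp upstream after fasting and 108 and 29 bp upstream after refeeding in WT. All 16 members with an ATAC-seq summit in some liver also had an H3K9me2 summit in some liver, and the 2 assays came from different samples. An H3K9me2 summit in some liver was common, at 38 of 44 members (86.4%), 43.2% of all annotated genes and 74.6% of tested genes.

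Members with an H3K9me2 summit had higher RNA levels than members without one. In the first fasted liver the members with an H3K9me2 summit had a median WT level of 49.4 TPM and those without 1.60 TPM. In the second fasted liver the medians were 23.6 and 0.412 TPM, and in the second refed liver 24.2 and 0.537 TPM. This direction was not particular to the family, since tested genes had a summit more often than all annotated genes. The shares were 51.6% against 29.3%, 74.1% against 42.7% and 61.6% against 35.1% in these livers. The RNA came from refed WT liver, so the fasted summits were set beside refed levels. Slc25a3 was among the strongest, at ranks 359 of 7690, 183 of 13456 and 454 of 9929 in these 3 livers. Slc25a10 had ranks 262, 73 and 873 and was the strongest member in the second fasted liver. Slc25a51 followed at ranks 187, 913 and 699 and Slc25a39 at ranks 548, 913 and 683, and these 4 were the members within the first 1000 ranks in all 3 livers. In all 3 livers 25 members had a summit, among them the citrate carrier Slc25a1 and the ornithine carrier Slc25a15, and the same share over all genes was not computed. In none were Slc25a2, Slc25a4, Slc25a18, Slc25a24, Slc25a31 and Slc25a35, which had WT levels of at most 5.46 TPM.

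Fasted and refed liver differed in few members once the first refed liver was set aside. Slc25a47, the liver-enriched carrier, had a summit in both fasted livers, at 800 bp inside the gene (rank 2498 of 7690) and 444 bp before the start (rank 12180 of 13456), and none in the second refed liver. Slc25a14, Slc25a27 and Slc25a36 had one in the second fasted liver alone. Slc25a45 had one in the second refed liver alone, 994 bp inside the gene and thus just within the window. The other 25 members marked in both fasted livers were also marked in the second refed liver. All 11 members whose RNA changed had a summit in the second fasted and in the second refed liver, and 9 of them in the first fasted liver. In that order, these livers had one at 84.1%, 77.3% and 59.1% of all members. Of the genes tested in RNA-seq, 74.1%, 61.6% and 51.6% had one. A link between the mark and the RNA change was not tested. No ChIP-seq sample came from JMJD1C-LKO liver, so the mark at these genes without JMJD1C was not analysed here.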

How the data were processed

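Livers of WT and JMJD1C-LKO mice were measured by RNA-seq (4 libraries), ATAC-seq (6 livers) and H3K9me2 ChIP-seq (4 livers with inputs). The deposited RNA-seq values are unscaled estimated counts of RefSeq transcripts on mm10. The submitters' processing notes name Partek, HISAT2, BWA, MACS2 2.1.1 and cutadapt 1.2.1, and the methods name Bowtie2 for ChIP-seq. For ATAC-seq and ChIP-seq, the authors called peaks in each sample with MACS2 and deposited the summits with the −log10 of the q-value. A further deposited table of the authors' own comparison (p-value, FDR and fold change) was not used, and no column of sample values was left unused (0).

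Counts were summed per gene, rounded and filtered with filterByExpr. Genes were tested with edgeR 4.0.16 (R 4.3.3) by its quasi-likelihood F test with TMM normalization, genotype alone in the model, and Benjamini-Hochberg adjustment over 14151 genes at 0.05. TMM factors were 0.961 to 1.018. CPM are TMM-normalized, and TPM were computed from the counts and RefSeq exon lengths, with 0.74% to 1% of counts on transcripts without a length. Values after ± are standard errors. The test was checked on simulated counts for 14151 genes, where it called 99% of 100 genes changed 2-fold and 68% of 100 changed 1.5-fold. The simulated counts had the same spread between libraries for every gene (a common dispersion of 0.0083), and low genes were not among those changed. These shares may therefore be too high for the members, and they do not cover the members with few counts. In the measured data the median absolute log2 difference between libraries was 0.111 in WT and 0.156 in JMJD1C-LKO. With 2 libraries per group, made from pooled RNA, p-values measure the spread between these libraries, which may be technical in part.

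Summits were placed within 1000 bp of the starts of curated RefSeq transcripts of GRCm38.p6, over 26180 genes. All 62 member transcripts were found there by identifier, and 61 matched at both ends within 200 bp. The family genes Slc25a41, Slc25a43 and Slc25a54 of the annotation were not analysed here. The values of 1 member and of 1 gene of another list are not reported here, although both stayed in the fits and the counts. Promoter sequences are RefSeq's, for GRCm38.p6.

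Named are all members past the threshold, the 8 highest in WT, those with a summit in both livers of a group, and at most 3 called genes per partner or marker list by smallest p, beside members named for completeness or as relatives. The members followed from the symbol rule, which like the classes and lists was set with earlier results of these data known. The counts of called genes in the lists are therefore descriptions only. Alternatives were DESeq2 1.42.0, RLE size factors, no filter, limma-voom (limma 3.58.1), a replicate block, leaving out each library, the most abundant transcript, bias-adjusted quasi-likelihood (chosen after the data were seen, as was the fit per transcript start), CPM in place of TPM, other windows, scores and list lengths for the summits, and either liver in place of both.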

Additional observations from a re-analysis of the deposited data

How the results depend on the processing

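The 11 members called became 10 with DESeq2 (42 members tested), 14 with the replicate block and 11 with RLE size factors, no filter, limma-voom or bias-adjusted quasi-likelihood, and the 3958 genes called in all lay between 3324 and 4207 under these 6 alternatives. With the most abundant transcript of each gene, applied to these counts after the data were seen, 9 members (20.9%) and 2326 genes (16.6%) were called. Leaving out 1 library moved the members called to between 5 and 18 and the genes called to between 1068 and 5180. In those fits the lone library of a group is assumed to vary like the others. The labels name nothing that would pair same-numbered replicates. The deviations of same-numbered libraries had a correlation of -0.0046, and only 2 pairs exist. The block added Slc25a27, Slc25a36 and Slc25a47 to the calls.

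Of 461 comparisons of the fold changes of 42 members between the settings, 416 kept direction and side of the threshold, 17 were no longer past it, 12 passed newly and 16 turned in sign. Slc25a15, Slc25a22, Slc25a25 and Slc25a51 passed in all 11 settings. Slc25a48 was lost with DESeq2, with its most abundant transcript and without 3 of the libraries, and Slc25a23 with its most abundant transcript and without 3 libraries. No called member turned in sign. For uncalled members the signs turned with the most abundant transcript in Slc25a21 (-0.14), and on leaving out a library in Slc25a2 (-0.08 to 0.80), Slc25a4 (-0.00 to 0.50), Slc25a17 (-0.19 to 0.04), Slc25a18 (-0.11 to 0.40), Slc25a21 (-0.15 to 0.18), Slc25a24 (-0.21 to 0.70), Slc25a29 (-0.12 to 0.39), Slc25a30 (-0.11 to 0.40), Slc25a38 (-0.02 to 0.19), Slc25a39 (-0.05 to 0.06), Slc25a45 (-0.38 to 0.14) and Slc25a46 (-0.03 to 0.06), with the lowest and the highest log2 value in brackets. The cause was not tested.

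By CPM, 6 of the 8 members highest by TPM kept that place. A summit in either liver in place of both gave 13, 10 and 1 members for ATAC-seq in WT fasted, WT refed and JMJD1C-LKO (13.1%, 11.4% and 4.55% of all genes) and 34 for H3K9me2 in refed liver (35.3%). A score of at least 5 left 3 members in WT refed ATAC-seq (3.46% of all genes). Lists of equal length left 1 and 2 members in WT fasted and WT refed ATAC-seq and 7 in fasted H3K9me2. With 1 liver alone, ATAC-seq gave 4 to 13 members in WT fasted, 7 to 8 in WT refed and 0 to 1 in JMJD1C-LKO, and H3K9me2 gave 26 to 37 in fasted and 0 to 34 in refed liver. The depth behind each summit list is not given, and a member without a summit was not detected there, which does not show it to be closed or unmarked.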
